A study of Mus musculus with 4 samples.

Results

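The chemokines and chemokine receptors of mouse bone marrow-derived dendritic cells were described in cells lacking GOLPH2 (KO) and in wild-type (WT) cells. Members were taken by symbol: every listed gene of the Ccl, Cxcl, Cx3cl, Xcl, Ccr, Cxcr, Cx3cr, Xcr and Ackr families with a number in its name, plus Ccrl2, Pf4 and Ppbp. This gave 53 of the 15881 genes listed in either state, 53 of 15310 in stimulated and 48 of 15394 in unstimulated cells, with 48 in both. The mice were C57BL/6 and 8 weeks old in all groups, and the KO genotype was GOLPH2-/-, the protein being a Golgi membrane protein encoded by Golm1. The groups were KO after IFN-gamma for 16 h and then LPS for 4 h, WT after the same treatment, unstimulated KO and unstimulated WT. Each group was 1 library of strand-specific mRNA sequencing. How the allele was made, how many mice each culture came from and how the marrow cells were grown were not given in the sources used here. With 1 library per group no value below has a spread between cultures, and every call compares 2 libraries by counting error, not 2 genotypes.

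Chemokines are small secreted proteins that direct the movement of leukocytes along gradients by binding G protein-coupled receptors. Dendritic cells use them both ways: they secrete ligands that draw in neutrophils, monocytes and T cells, and they change their own receptors as they mature and travel to lymph nodes. Many ligand genes are switched on by NF-kB after LPS, while the ligands of CXCR3 (CXCL9, CXCL10 and CXCL11) are classical interferon targets. Atypical receptors and CCRL2 bind or take up ligands without the usual G protein signal.

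Promoters of Cxcl1, Cxcl9, Cxcl10, Ccrl2 and Ackr3 are shown first: the last 3 and Cxcl1 were called at 1.5-fold or more between KO and WT, and Cxcl9 is a neighbour of Cxcl10 that was not called. Ccl17 and Cxcl11, also called at that size, are not shown, and Cxcl11 had no promoter entry. Promoters of Cxcl2 and Cxcl3 were added after their values were seen, as both neighbour Cxcl1. Each is the 250 bases before the annotated start of the gene by RefSeq on GRCm38.p6, read 5′ to 3′ on the gene's strand, at chr5:90890995-90891244 (plus strand) for Cxcl1, chr5:90903649-90903898 (plus) for Cxcl2, chr5:90785851-90786100 (plus) for Cxcl3, chr5:92348890-92349139 (minus) for Cxcl10, chr5:92328080-92328329 (minus) for Cxcl9, chr9:111057519-111057768 (minus) for Ccrl2 and chr1:90203730-90203979 (plus) for Ackr3. Capitals mark matches to an NF-kB motif, GGANNTTCC, or to the core of an interferon-stimulated response element, GAAANNGAA, on either strand.
Cxcl1: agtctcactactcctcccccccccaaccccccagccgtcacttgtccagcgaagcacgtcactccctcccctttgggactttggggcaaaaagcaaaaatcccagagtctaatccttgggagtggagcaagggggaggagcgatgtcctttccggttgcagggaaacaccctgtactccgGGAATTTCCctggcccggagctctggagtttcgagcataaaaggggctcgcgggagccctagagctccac
Cxcl2: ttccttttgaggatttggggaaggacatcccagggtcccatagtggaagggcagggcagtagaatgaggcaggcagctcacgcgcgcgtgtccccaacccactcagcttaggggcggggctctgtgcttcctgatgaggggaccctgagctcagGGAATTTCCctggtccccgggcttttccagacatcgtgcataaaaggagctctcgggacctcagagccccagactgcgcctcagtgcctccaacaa
Cxcl3: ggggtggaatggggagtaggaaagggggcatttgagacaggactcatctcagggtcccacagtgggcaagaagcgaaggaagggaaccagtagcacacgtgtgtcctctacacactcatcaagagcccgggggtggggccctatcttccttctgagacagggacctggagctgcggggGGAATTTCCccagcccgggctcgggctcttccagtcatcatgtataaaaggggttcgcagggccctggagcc
Cxcl10: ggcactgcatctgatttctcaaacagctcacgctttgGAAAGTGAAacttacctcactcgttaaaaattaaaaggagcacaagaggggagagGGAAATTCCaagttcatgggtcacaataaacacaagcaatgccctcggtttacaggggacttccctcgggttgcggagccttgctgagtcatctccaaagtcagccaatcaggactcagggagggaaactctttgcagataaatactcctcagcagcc
Cxcl9: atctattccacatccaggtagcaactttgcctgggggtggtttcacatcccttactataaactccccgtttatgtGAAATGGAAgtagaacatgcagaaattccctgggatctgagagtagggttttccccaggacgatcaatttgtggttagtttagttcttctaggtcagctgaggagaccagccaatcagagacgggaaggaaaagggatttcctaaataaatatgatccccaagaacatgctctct
Ccrl2: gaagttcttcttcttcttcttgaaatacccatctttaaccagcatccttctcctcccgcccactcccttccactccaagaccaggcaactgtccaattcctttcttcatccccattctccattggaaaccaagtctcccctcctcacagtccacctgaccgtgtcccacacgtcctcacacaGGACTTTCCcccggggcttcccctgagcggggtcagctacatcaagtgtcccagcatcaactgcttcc
Ackr3: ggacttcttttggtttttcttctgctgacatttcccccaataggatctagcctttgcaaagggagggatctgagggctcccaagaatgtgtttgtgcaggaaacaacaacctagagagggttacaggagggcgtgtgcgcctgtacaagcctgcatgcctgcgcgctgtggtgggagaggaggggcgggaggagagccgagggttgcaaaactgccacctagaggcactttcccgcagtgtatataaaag

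The NF-kB letters stood in 963 of 27025 promoters of this length (3.56%) and in 7 of the 40 members that matched a promoter: Ccl12, Ccr3, Ccrl2, Cxcl1, Cxcl2, Cxcl3 and Cxcl10. Cxcl1, Cxcl2 and Cxcl3 carried the same 9 bases, GGAATTTCC, ending 62, 88 and 64 bases before the start. Cxcl10 carried GGAAATTCC ending 150 bases before the start, and Ccrl2 carried GGACTTTCC ending 60 bases before it. The interferon element's letters stood in 1934 promoters (7.16%) and in 6 members (Ccl3, Ccl19, Ccr2, Cxcl9, Cxcl10 and Cxcl14). Cxcl10 was the one promoter shown with both motifs, the interferon match ending 205 bases before the start. The window of Ackr3 held neither string of letters. A match is a description of these bases and shows no binding.

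The libraries held 36769307 reads for stimulated KO cells, 37698487 for stimulated WT cells, 39550037 for unstimulated KO cells and 34639199 for unstimulated WT cells, as solved from the deposited ratios and p-values. Golm1 stood at 25.01% of WT in stimulated KO cells (190 against 779 reads) and at 23.5% in unstimulated KO cells. CPM values below are solved reads scaled to these totals, and a ratio is the log2 ratio of KO over WT corrected for depth, ± its counting SE. The correction took 0.19 from the deposited log2 ratios in unstimulated cells and added 0.04 in stimulated cells, leaving the median gene at 0.0013 and 0.0052. A call means an adjusted p (Benjamini-Hochberg, over all genes of the table) under 0.001. Genes at the upper limit of the deposited p-values (51 unstimulated, 50 stimulated) give only lower bounds of their reads, and their SE is an upper limit. Members took 2.21% of the reads of stimulated KO cells, 2.12% of stimulated WT cells, 2.14% of unstimulated KO cells and 2.11% of unstimulated WT cells, with genes at the limit counted at their bounds.

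Chemokine genes moved in both directions in the KO libraries. In stimulated cells 13 of 53 members were called higher in KO and 8 lower, against 5.36% and 6.54% of all genes. In unstimulated cells 9 of 48 were called higher and 8 lower, against 4.7% and 4.27% of all genes. As derived from the values, the p behind these 17 calls already allows for depth. By the sign of the unscaled deposited ratios the same calls would be 13 higher and 4 lower. A gene with more reads is called on a smaller ratio, and most of these ratios were small. At 1.5-fold or more, 1 member was called higher (Ccl17) and 3 lower (Cxcl10, Cxcl11 and Ackr3) in stimulated cells, against 0.425% and 0.594% of all genes. In unstimulated cells 0 were called higher and 2 lower (Cxcl1 and Ccrl2) at that size, against 0.409% and 0.299%. Just outside this limit lay Ccl4 at 1.495-fold and Cxcl2 at 0.680 of WT in unstimulated cells, and just inside it Ccl17 in stimulated cells at 1.51-fold. At 2-fold or more, 0 members were called higher and 1 lower (Ackr3) in stimulated cells (0.229% and 0.15% of all genes), and 0 higher and 0 lower in unstimulated cells (0.0909% and 0.0844%).

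The median member lay at a log2 ratio of 0.084 in stimulated and 0.0081 in unstimulated cells, against 0.0052 and 0.0013 over all genes. Among genes read at least as precisely as 50 reads in each library allow, the median absolute log2 ratio was 0.17 for 34 members and 0.10 for all 11112 genes in stimulated cells, and 0.16 for 31 members and 0.085 for all 11243 genes in unstimulated cells.

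**Figure D1:**
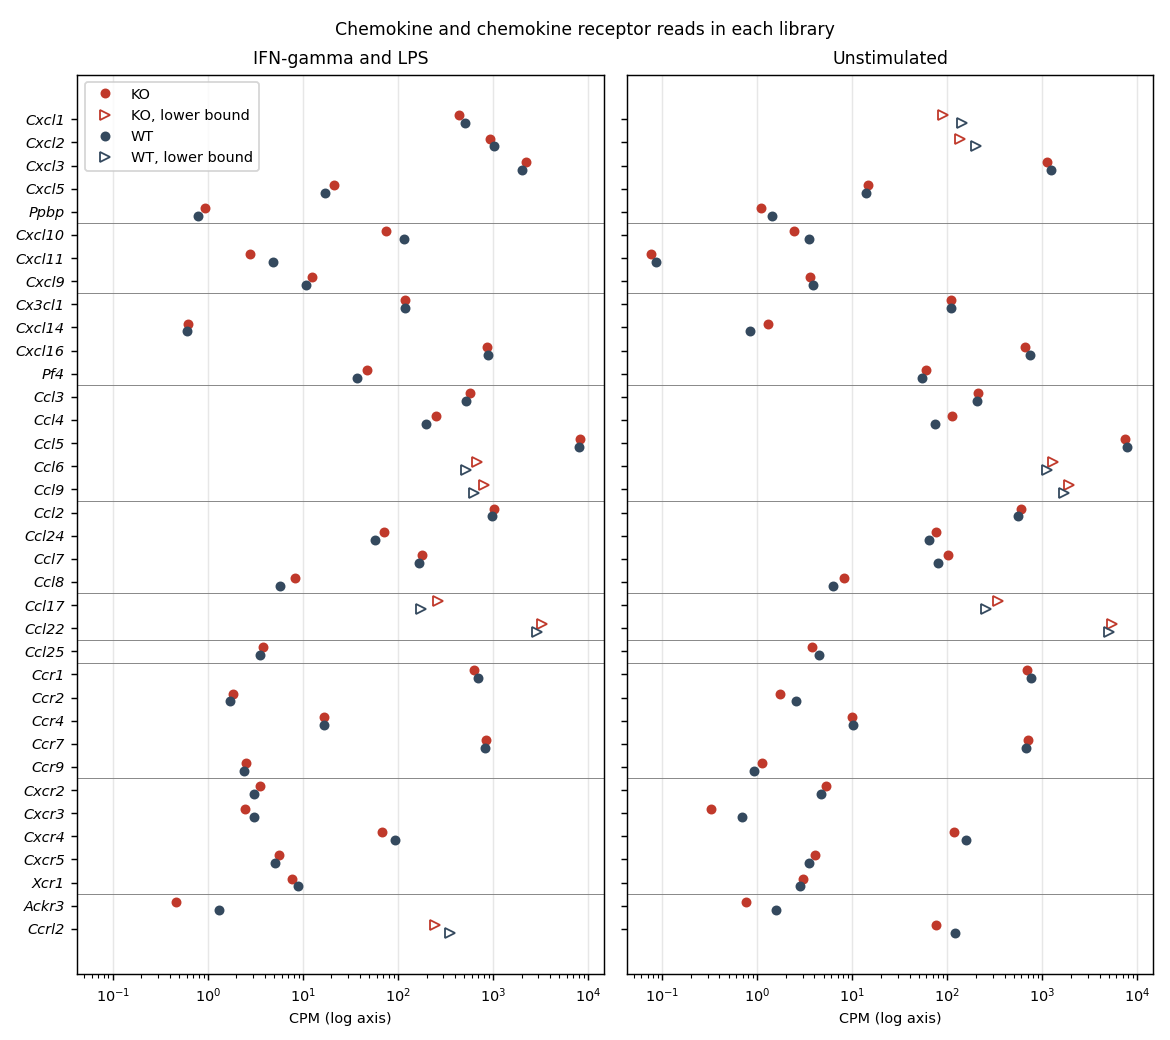
CPM (log axis) of members with at least 50 reads in 1 library, or at the limit of the deposited p-values, after IFN-gamma and LPS (left) and in unstimulated cells (right). Red is KO and dark blue is WT, open triangles are lower bounds, and grey lines part the role groups. The KO and WT points of most genes lie close together, with Cxcl10 at 74.95 in KO and 115.9 in WT after stimulation among the pairs set apart.

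The neutrophil attractants of the ELR+ CXC group, which bind CXCR2, were called lower in unstimulated KO cells for 3 of 5 genes. After stimulation they split with 2 higher and 2 lower. The unstimulated ratio of Cxcl3 changes sign without the depth correction. Cxcl1 was lower in KO, with a log2 ratio of −0.67 ± 0.03 on at least 3573 reads in KO and at least 4975 in WT. After stimulation Cxcl1 had 444 CPM in KO and 502 in WT (16309 and 18915 reads), a log2 ratio of −0.18 ± 0.02. Both states were called lower, and the deficit was smaller in stimulated than in unstimulated cells, a difference that was not tested. Cxcl2, its close relative, had a log2 ratio of −0.56 ± 0.03 in unstimulated cells on at least 5354 reads in KO and 6899 in WT. After stimulation Cxcl2 had 938 CPM in KO and 1021 in WT, a log2 ratio of −0.12 ± 0.01, also called lower.

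Cxcl3, the third neighbour with the same 9-base NF-kB match, was called in opposite directions. Unstimulated cells had 1127 CPM in KO and 1231 in WT, a log2 ratio of −0.13 ± 0.01 that is 0.064 without the depth correction. Stimulated cells had 2227 CPM in KO and 2010 in WT, a log2 ratio of 0.15 ± 0.01. Cxcl5, whose product attracts neutrophils too, had 14.5 CPM in KO and 13.9 in WT without stimulation (0.06 ± 0.09, not called). After stimulation it had 21.0 in KO and 17.03 in WT and was called higher at 0.30 ± 0.08. Ppbp, a platelet chemokine, had 30 to 50 reads in the 4 libraries and was called in neither state.

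The ligands of CXCR3, which draw activated T cells and NK cells, diverged after stimulation. Cxcl10 had 2756 reads in stimulated KO cells and 4371 in stimulated WT cells, or 74.95 and 115.9 CPM. The KO level was 0.646 of the WT level (exact 95% interval 0.616 to 0.678, counting error only), a log2 ratio of −0.63 ± 0.03. Before stimulation Cxcl10 had 97 reads in KO and 121 in WT, a log2 ratio of −0.51 ± 0.20 that was not called. The 2 log2 ratios lay within 1 SE of the unstimulated value, which rests on few reads.

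Cxcl11 had 102 reads in stimulated KO cells and 184 in stimulated WT cells, a log2 ratio of −0.82 ± 0.17 and a fold of 0.568 (0.442 to 0.728). RefSeq annotates mouse Cxcl11 at chr5:92359544-92363296 as a transcribed pseudogene on GRCm38.p6, a C57BL/6 sequence. Unstimulated cells had 3 reads in KO and 3 in WT. Cxcl9, the third ligand, lay on the other side: 459 reads in stimulated KO cells and 403 in stimulated WT cells, a log2 ratio of 0.22 ± 0.10 that was not called. In unstimulated cells Cxcl9 had 143 reads in KO and 135 in WT. Thus within one cluster of 3 adjacent genes on chromosome 5, 2 were called lower in stimulated KO cells and Cxcl9 was not called, with an interval of 1.02 to 1.34 for its fold.

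The inflammatory CC ligands Ccl3, Ccl4, Ccl5, Ccl6 and Ccl9, which draw monocytes and T cells, were higher in KO for 5 of 5 genes after stimulation. The stimulated ratio of Ccl5 changes sign without the depth correction. Ccl4 (MIP-1 beta) had 252 CPM in stimulated KO cells and 198 in stimulated WT cells, and 111 in unstimulated KO cells and 74.4 in unstimulated WT cells. Its log2 ratios were 0.35 ± 0.02 and 0.58 ± 0.04, both called. Ccl3 (MIP-1 alpha), its neighbour, had 571 CPM in KO and 516 in WT after stimulation and was called higher at 0.15 ± 0.01. Without stimulation Ccl3 had 210.0 in KO and 207 in WT, a log2 ratio of 0.02 ± 0.02 that was not called. The annotated ranges of Ccl3 and Ccl4 overlap on chromosome 11, and whether the counting used strand is not given, so reads in the shared stretch cannot be told apart.

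Ccl6 and Ccl9, rodent chemokines that bind CCR1, were called higher in KO in both states. Ccl6 had log2 ratios of 0.36 ± 0.01 with and 0.21 ± 0.01 without stimulation, and Ccl9 of 0.33 ± 0.01 and 0.17 ± 0.01. Both lay at the limit of the p-values, on at least 24714 reads in stimulated KO cells for Ccl6 and at least 29425 for Ccl9. Ccl5 (RANTES) had 8239 CPM in stimulated KO cells and 8099 in stimulated WT cells, a log2 ratio of 0.025 ± 0.0037 that is −0.011 without the depth correction. In unstimulated cells Ccl5 had 7396 in KO and 7683 in WT, −0.055 ± 0.0038, or 0.14 without the correction. The opposite calls of Ccl5 thus rest on folds of 1.02 and 0.963.

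The ligands of CCR2 and CCR3, which recruit monocytes and eosinophils, were called higher in KO for 3 of 5 genes in unstimulated and 3 of 6 in stimulated cells, and lower for 0 in each. Ccl2 (MCP-1) had 1013 CPM in stimulated KO cells and 966 in stimulated WT cells, and 595 and 555 in the unstimulated pair. Its log2 ratios were 0.07 ± 0.01 and 0.10 ± 0.01, both called higher. Ccl7 (MCP-3) was called higher in unstimulated KO cells only at the threshold used, with 101 CPM in KO and 79.5 in WT (0.34 ± 0.04). After stimulation Ccl7 had 178 in KO and 168 in WT (0.08 ± 0.03). The difference between its states was not tested.

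Ccl24 (eotaxin-2) had 71.4 CPM in stimulated KO cells and 56.9 in stimulated WT cells, and 75.8 and 63.8 in the unstimulated pair. It was called higher in both states, at 0.33 ± 0.04 and 0.25 ± 0.04. Ccl8 (MCP-2) had 305 reads in stimulated KO cells and 216 in stimulated WT cells, 0.53 ± 0.13 and called, against 321 and 217 reads in unstimulated cells, 0.37 ± 0.13 and not called. Its KO level was thus 1.45-fold (1.21 to 1.73) and 1.30-fold (1.09 to 1.55) the WT level. Ccl11 (eotaxin-1), listed in stimulated cells alone, had 10 reads in KO and 0 in WT and was not called. Setting WT to a floor of 3 reads per library gives a fold of 3.42, which is not a lower limit. The exact interval of its fold starts at 2.30 and has no upper limit.

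The ligands of CCR4, a receptor of Th2, regulatory and skin-homing T cells, were both higher in KO in both states. Ccl17 (TARC) had log2 ratios of 0.60 ± 0.02 in stimulated cells and 0.42 ± 0.02 in unstimulated cells, or 1.51-fold and 1.33-fold. Its reads were at least 9684 in KO and 6562 in WT after stimulation, and at least 13488 and 8859 before it. Ccl22 (MDC), which lies close to Ccl17 on chromosome 8, had smaller log2 ratios of 0.16 ± 0.0060 in stimulated and 0.099 ± 0.0047 in unstimulated cells. Cx3cl1 (fractalkine), annotated between them, had 118 CPM in stimulated KO cells and 120 in stimulated WT cells, and 110.0 and 110.1 in the unstimulated pair, and was not called. Its folds were 0.985 (0.944 to 1.03) and 0.999 (0.956 to 1.04).

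Of the other CXC, CX3C and C ligands, 2 were called, each in 1 state. Cxcl16, a membrane-bound ligand of CXCR6, had 663 CPM in unstimulated KO cells and 741 in unstimulated WT cells, a log2 ratio of −0.16 ± 0.01 that is 0.031 without the depth correction. After stimulation Cxcl16 had 864 in KO and 888 in WT, −0.04 ± 0.01, not called. Pf4, a platelet factor also found in myeloid cells, had 1757 reads in stimulated KO cells and 1411 in stimulated WT cells and was called higher at 0.35 ± 0.05. In unstimulated cells Pf4 had 59.4 CPM in KO and 54.3 in WT (0.13 ± 0.04, not called).

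The 4 listed ligands of CCR6 to CCR10 (Ccl19, Ccl25, Ccl27a and Ccl28) were called in neither state. Ccl25, the best read of them, had 132 to 155 reads in the 4 libraries. Ccl27a had 32 reads in stimulated KO cells and 17 in stimulated WT cells, and 41 and 19 in the unstimulated pair, log2 ratios of 0.95 ± 0.42 and 0.92 ± 0.39. Ccl19 and Ccl27a have near-identical copies in the mouse genome, so their counts are uncertain.

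**Figure D2:**
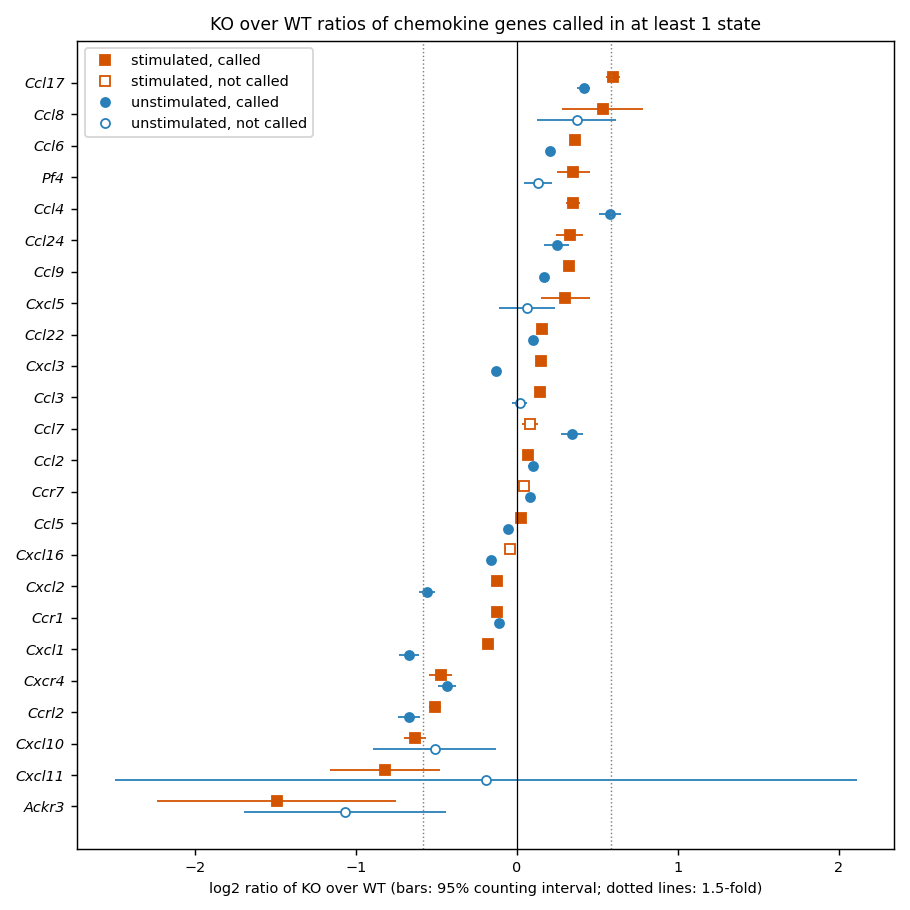
Log2 ratios of KO over WT for the 24 members called in at least 1 state, ordered by the stimulated value, with orange squares for stimulated and blue circles for unstimulated cells. Filled symbols are called, bars are 95% counting intervals and dotted lines mark 1.5-fold. Ccl17 stands at the top (0.60 after stimulation) and Ackr3 at the bottom (−1.49), and Cxcl1 and Cxcl2 lie further left in unstimulated than in stimulated cells.

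Among the receptors, stimulated KO cells had 0 of 10 CC receptors called higher and 1 lower, and 0 of 7 CXC, CX3C and XC receptors higher and 1 lower. Unstimulated KO cells had 1 of 9 CC receptors higher and 1 lower, and 0 of the same 7 higher and 1 lower. Cxcr4, the receptor of CXCL12 that holds cells in the marrow and guides dendritic cell migration, had 67.4 CPM in stimulated KO cells and 93.6 in stimulated WT cells (2480 and 3528 reads). The unstimulated pair had 117 in KO and 158 in WT (4620 and 5462 reads). KO levels were thus 0.721 (0.684 to 0.759) and 0.741 (0.712 to 0.771) of WT, log2 ratios of −0.47 ± 0.04 and −0.43 ± 0.03, called lower in both states. Its ligand gene Cxcl12 had 19 and 23 reads in the KO libraries and 11 and 7 in the WT libraries, and was not called.

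Ccr1, a receptor of CCL3, CCL5, CCL6 and CCL9, had 639 CPM in stimulated KO cells and 696 in stimulated WT cells, and 696 and 751 in the unstimulated pair. Its log2 ratios were −0.12 ± 0.01 and −0.11 ± 0.01, both called lower, and the unstimulated one is 0.082 without the depth correction. Its ligand genes Ccl6 and Ccl9 were called higher in the same libraries. Ccr7, which guides mature dendritic cells to lymph nodes, had 847 in stimulated KO cells and 822 in stimulated WT cells (0.04 ± 0.01, not called), and was called higher in unstimulated cells with 714 in KO and 674 in WT (0.08 ± 0.01).

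The other receptors described were called in neither state. The CCR4 receptor gene had 610 reads in stimulated KO cells and 630 in stimulated WT cells, and 395 and 355 in the unstimulated pair. Xcr1, a marker of cross-presenting dendritic cells, had 283 reads in stimulated KO cells and 336 in stimulated WT cells, and 119 and 97 in the unstimulated pair. Cxcr3 had 91 and 114 reads after stimulation and 13 and 24 before it, in KO and WT. Its log2 ratios were −0.29 ± 0.20 after and −1.08 ± 0.48 before stimulation.

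The atypical and chemokine-binding receptors were lower in KO wherever they were called. Ccrl2, which binds chemerin and is raised by LPS in myeloid cells, had 2977 reads in unstimulated KO cells and 4141 in unstimulated WT cells, or 75.3 and 120 CPM. The KO level was 0.630 (0.6005 to 0.660) of WT, a log2 ratio of −0.67 ± 0.03. After stimulation the log2 ratio was −0.51 ± 0.02, on at least 9087 reads in KO and 13260 in WT. Ackr3, a scavenger of CXCL12 and CXCL11, had 17 reads in stimulated KO cells and 49 in stimulated WT cells, −1.49 ± 0.38. The fold of 0.356 (0.192 to 0.629) was called from the deposited p, but an exact binomial test on the solved reads did not call it. In unstimulated cells Ackr3 had 30 reads in KO and 55 in WT, −1.07 ± 0.32, not called. Ackr1, Ackr2 and Ackr4 had 3 reads or fewer in every library that listed them.

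Of the 48 members listed in both states, 7 were called higher in both (Ccl2, Ccl4, Ccl6, Ccl9, Ccl17, Ccl22 and Ccl24), against 2.96% of all genes. Another 5 were called lower in both (Ccr1, Ccrl2, Cxcl1, Cxcl2 and Cxcr4), against 2.23%, and 2 in opposite directions (Ccl5 and Cxcl3), against 0.277%. The genes called higher in both were all CC ligands, and those called lower were 2 CXC ligands and 3 receptors. The unstimulated ratios of Ccr1, Ccl5 and Cxcl3 change sign without the depth correction. The 2 states share no library, but whether they share animals is not given. A limma fit that took the states as repeats called 0 of 31 precisely measured members at an adjusted p under 0.05, and 1 gene higher and 1 lower of 10986 (0.0091% each). By the same fit 14 of the 31 members had an unadjusted p under 0.05, against 17.9% of all genes, and the lowest adjusted p was 0.0845, for Ccrl2 and Cxcl10 (mean log2 ratios −0.59 and −0.57). With a variance trend on the mean reads, added after seeing the data, limma called 8 members higher and 5 lower, against 4.38% and 4.1% of all genes. These were Ccl4, Ccl6, Ccl7, Ccl8, Ccl9, Ccl17, Ccl24 and Pf4 as higher, and Ccrl2, Cxcl1, Cxcl2, Cxcl10 and Cxcr4 as lower.

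**Figure D3:**
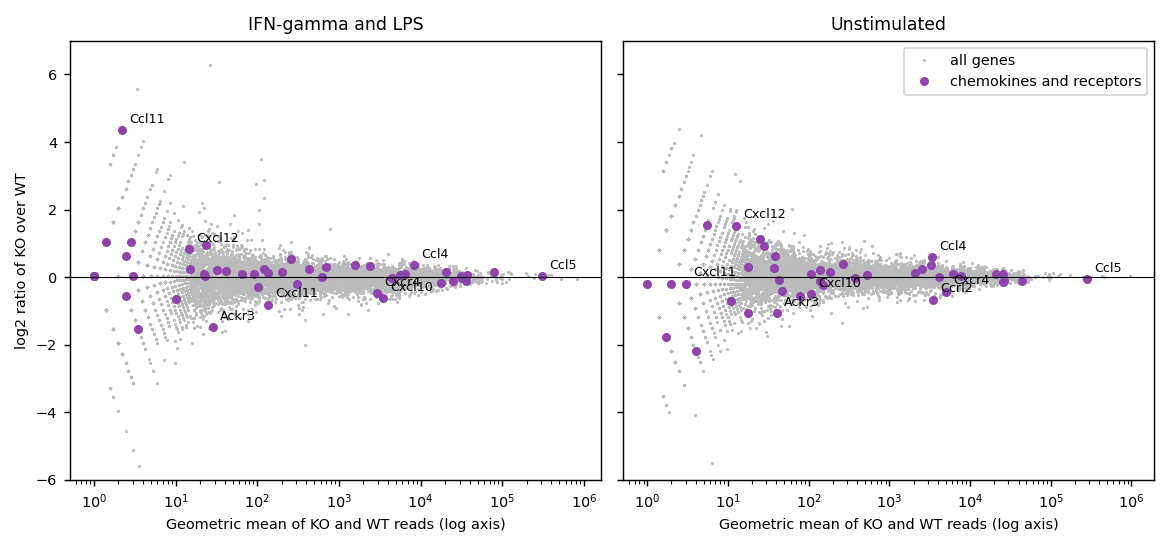
Log2 ratio of KO over WT against the geometric mean of the KO and WT reads (log axis) for all genes whose reads could be solved (grey) and for members (purple), stimulated on the left and unstimulated on the right. The spread narrows as reads grow. Cxcl10 at −0.63 after stimulation and Ccrl2 at −0.67 before it lie below most genes with similar reads, while Ccl11 at the upper left rests on 10 reads.

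On the RefSeq annotation of GRCm38.p6, 30 of the 53 members lie in 6 clusters of at least 3 genes spaced by no more than 250 kb. In the cluster at chr11:83525778-83664683 (Ccl5, Ccl9, Ccl6, Ccl3 and Ccl4), 5 of 5 genes were called higher in stimulated KO cells, and 3 higher and 1 lower in unstimulated KO cells. In the cluster at chr5:90759298-90905938 (Cxcl5, Ppbp, Pf4, Cxcl3, Cxcl1 and Cxcl2) calls were mixed, with Cxcl5, Pf4 and Cxcl3 higher and Cxcl1 and Cxcl2 lower in stimulated KO cells, and 0 higher and 3 lower (Cxcl1, Cxcl2 and Cxcl3) in unstimulated KO cells. The ratios of Ccl5 in both states and of Cxcl3 in unstimulated cells change sign without the depth correction.

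The solved reads also give the response to IFN-gamma and LPS in each genotype, for the 41 members solved in both states. The scale is CPM, on which the median of all genes fell by 0.16 in KO and by 0.14 in WT (log2), and the median member was at 0.11 in KO and 0.08 in WT. At least 2-fold higher after stimulation were 9 of 41 members in KO and 9 of 41 in WT, against 4.36% and 4.79% of all genes. Shared by both were Cxcl9, Cxcl10, Cxcl11, Cxcr3, Xcr1, Ccl3, Ccl4 and Ccr9. The ninth was Ackr4 in KO, on 3 stimulated against 1 unstimulated reads, and Ccl7 in WT.

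Cxcl10 was 30.6-fold higher after stimulation in KO (exact 95% interval 24.96 to 37.8) and 33.2-fold in WT (27.7 to 40.1). These intervals overlap, and a difference in response was not detectable at this depth. Cxcl11 was 36.6-fold higher in KO (12.2 to 180) and 56.4-fold in WT (19.0 to 276), each resting on 3 unstimulated reads. Cxcl9 was 3.45-fold higher in KO (2.86 to 4.195) and 2.74-fold in WT (2.25 to 3.36).

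The MIP-1 genes responded in opposite order. Ccl4 was 2.27-fold higher in KO (2.19 to 2.35) and 2.66-fold in WT (2.54 to 2.78), while Ccl3 was 2.72-fold higher in KO (2.65 to 2.79) and 2.49-fold in WT (2.42 to 2.56). Cxcl3 was 1.98-fold higher in KO (1.95 to 1.999) and 1.63-fold in WT (1.61 to 1.65). Ccl7 was 1.76-fold higher in KO (1.69 to 1.83) and 2.11-fold in WT (2.02 to 2.21). The KO and WT intervals do not overlap for any of these 4 genes, but they leave out the spread between cultures. They restate, in the other direction, the differences between the KO over WT ratios of the 2 states.

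Cxcr3 was 7.53-fold higher in KO (4.19 to 14.7) and 4.36-fold in WT (2.79 to 7.09), and Xcr1 was 2.56-fold (2.06 to 3.20) and 3.18-fold (2.53 to 4.03). Cxcr4 was lower after stimulation, at 0.577 of its unstimulated level in KO (0.550 to 0.606) and 0.593 in WT (0.569 to 0.619). Ccl5 had a fold of 1.11 in KO and 1.05 in WT. At least 2-fold lower were 2 members in KO, Cxcl14 on 23 stimulated and 51 unstimulated reads and Ccl28 on 3 and 10, and 0 in WT, against 5.16% and 5.53% of all genes. Folds of response of Cxcl1, Cxcl2, Ccl6, Ccl9, Ccl17, Ccl22 and Ccrl2 could not be computed, since their reads are bounds in at least 1 state. They are not in the counts above. Ccrl2 was higher after stimulation in both genotypes, from 75.3 to at least 247 CPM in KO and from 120 to at least 352 in WT.

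**Figure D4:**
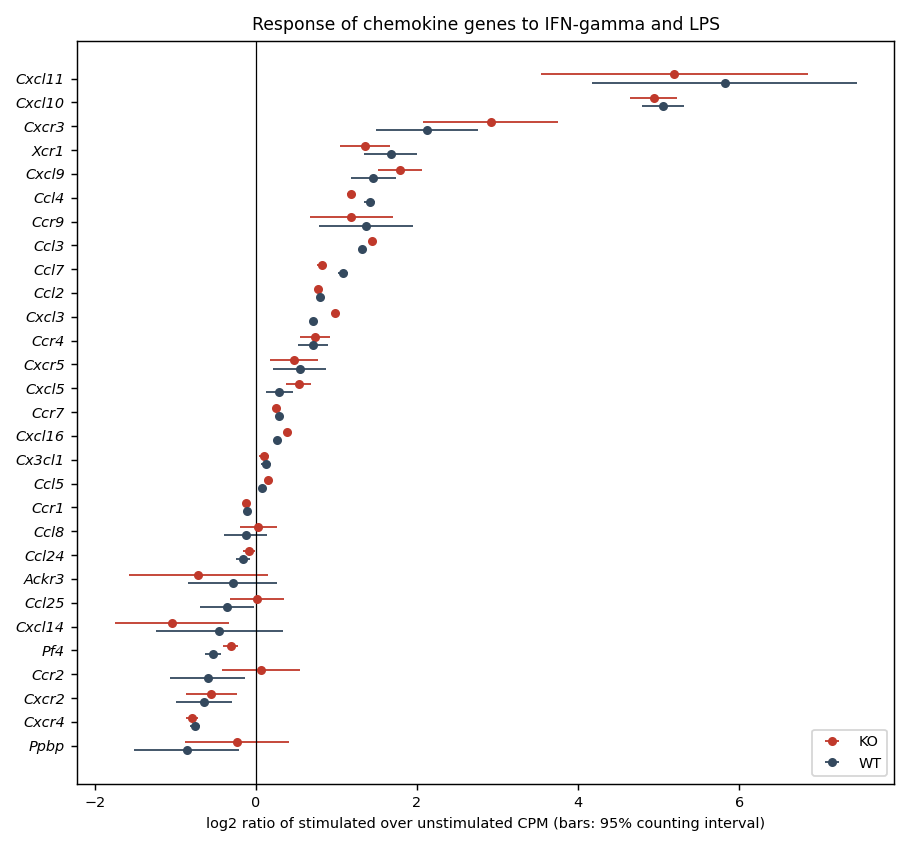
Log2 ratio of stimulated over unstimulated CPM in KO (red) and WT (dark blue) for 29 members solved in both states with at least 50 reads in 1 library, ordered by the WT value; bars are 95% counting intervals. Cxcl10 and Cxcl11 stand far above the rest, and for most genes the KO and WT points lie near each other.

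The genes of the pathway beyond ligands and receptors were described with a list of 42 signal carriers, proteases and chemokine-holding syndecans, all 42 listed. In stimulated cells 9 were called higher in KO and 6 lower, where 5.36% and 6.54% of all genes were. In unstimulated cells 4 were called higher and 6 lower, where 4.7% and 4.27% of all genes were. The median log2 ratio of the list was 0.042 in stimulated and 0.0022 in unstimulated cells. By the sign of the ratios without the depth correction, the same unstimulated calls would be 7 higher and 3 lower. Rgs1 and Rgs2, which shorten the G protein signal, were lower in both states: Rgs2 had 20.6 CPM in stimulated KO cells and 25.01 in stimulated WT cells, and 31.1 and 42.1 in the unstimulated pair. Its log2 ratios were −0.28 ± 0.07 and −0.44 ± 0.06, and those of Rgs1 were −0.12 ± 0.02 and −0.21 ± 0.02. Arrb1, an arrestin that ends receptor signalling, had 119 CPM in stimulated KO cells and 148 in stimulated WT cells (−0.31 ± 0.03). In unstimulated cells Arrb1 was not called (−0.09 ± 0.02), and Arrb2 was called in neither state. Adrbk1 (GRK2) was called higher in both states (0.08 ± 0.02 in each). Beside Adrbk1 and Sdc4, those called higher in stimulated KO cells were Gnai2, Gnb1, Gnb2, Rac1, Rac2, Cdc42 and Mmp12. Beside Rgs1, Rgs2 and Arrb1, those called lower there were Gna13 (−0.14), Ptk2b (−0.10) and Rgs14 (−0.40). No other Rgs gene of the list was called in either state. Mmp12 was called in opposite directions, at 0.083 in stimulated and −0.071 in unstimulated cells, the latter 0.12 without the depth correction. Sdc4, a heparan sulfate carrier that holds chemokines, was higher in both states (0.22 ± 0.02 and 0.19 ± 0.03).

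All 9 dendritic cell markers were listed, among them Itgax (CD11c) at 452 CPM in stimulated KO cells and 371 in stimulated WT cells. Of these 9, 6 were called higher in KO and 0 lower in each state. Ccr7, also counted among the members, was one of those called higher in unstimulated cells. Over all genes 5.36% were called higher and 6.54% lower in stimulated cells, and 4.7% and 4.27% in unstimulated cells. Summed levels were 7057 and 5917 CPM in KO and 6529 and 5599 in WT (stimulated and unstimulated, the order used below). The unstimulated sums leave out Itgax, whose reads there are bounds, and so cover 8 markers against 9 in stimulated cells. Among the 7 markers of macrophages and monocytes, each state had 4 called higher and 1 lower, with sums of 1554 and 1629 in KO and 1491 and 1603 in WT. Of 8 stromal markers, 6 were higher and 1 lower in stimulated cells and 4 higher and 0 lower in unstimulated cells. Their sums were 147 and 109 in KO and 84.5 and 77.2 in WT, and Col3a1 had 226 and 38 reads in KO and 3 and 4 in WT. The stromal sums were higher in KO in both states. Thy1 was the largest part of each, at 68.7 and 72.97 CPM in KO and 51.5 and 55.2 in WT. The stromal marker called lower was Pdgfrb in stimulated cells (−0.74). Of the neutrophil markers listed, 0 of 5 were higher and 1 lower in stimulated cells, and 0 of 7 higher and 2 lower in unstimulated cells. The sums were 347 and 251 in KO and 395 and 317 in WT, and Ly6g had no row. Lcn2 made up most of these sums, at 280 and 164 CPM in KO and 330 and 212 in WT. The lower calls were Lcn2 in both states and Mmp8, also in the signalling list, in unstimulated cells. S100a9, Ngp and Ltf had 4 reads or fewer wherever they were listed. Of 7 lymphocyte markers listed, 1 was higher and 0 lower in each state, with sums of 13.9 and 15.6 in KO and 8.75 and 10.1 in WT. The part of other cells in the chemokine ratios was not tested, and in bulk RNA a changed number of cells and a changed level per cell cannot be told apart.

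Members not called numbered 32 in stimulated and 31 in unstimulated cells, of which 18 and 14 had under 50 reads in both libraries. Their log2 ratios in that low range lay between −1.55 and 4.36 in stimulated and between −2.19 and 1.55 in unstimulated cells, with SEs of 0.31 or more. In the authors' deposited tables, 5 members were marked as differentially expressed: Ccl4 and Ccl17 in unstimulated cells, and Ackr3, Cxcl10 and Cxcl11 in stimulated cells. The deposited log2 ratios behind those marks were 0.77, 0.61, −1.53, −0.67 and −0.85, in the same order and before the depth correction.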

How the data were processed

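RNA was isolated with the RNeasy kit and strand-specific TruSeq mRNA libraries were made, per the labels' protocols, and FastQC 0.10.1, HTSeq 0.6.0 and the build mm10 were used, per the submitters' processing notes. The aligner, annotation, strand setting, scaling and kind of test were not given in the sources used here. Deposited by the authors were, per the file headers, a log2 fold change of KO over WT and a log10 p-value for each gene and state, and the second holds −log10 p with upper limits of 100 (unstimulated) and 150 (stimulated). Groups came from the sample titles.

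From the values, the deposited log2 ratio was that of whole reads without depth scaling (0 reads entered as 0.5), and the p a normal test about the ratio of the library totals. Inverting both gave the reads of each library for every gene below the limits. Under 1000 reads, 99.98% (unstimulated) and 99.96% (stimulated) of genes fell within 0.01 of whole reads. This is an own derivation. Its solving step was tested on simulated data made with the same formula, which cannot show that the authors' test had this form. The design had assumed no reads per library, so reads and responses go beyond it. Totals were 36769307 (stimulated KO), 37698487 (stimulated WT), 39550037 (unstimulated KO) and 34639199 (unstimulated WT). Intervals on folds are exact 95% binomial (Clopper-Pearson) and, like the SEs and the floor of 3 reads, cover counting error only.

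Calls used Benjamini-Hochberg adjustment of the deposited p over each whole table. limma 3.58.1 in R 4.3.3 fitted both states together; other steps ran in Python 3.11.15 with SciPy 1.17.1 and pandas 2.3.3. Alternatives were the ratios as deposited or centred on the median gene, other thresholds and folds, a precision filter, an exact binomial test and a variance trend (the last 2, like the stimulation response, chosen after seeing the data). Every member entered the counts, and 1 of them is not reported by name here; those called in at least 1 state, the ELR+ CXC chemokines and the CXCR3 ligands were named with values, and other genes as examples. Members and lists were chosen with earlier results of these data known. Positions and promoters came from RefSeq (GRCm38.p6), of which 40 of 53 members had a promoter.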

Additional observations from a re-analysis of the deposited data

Results flagged for a closer look

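Cxcl3 and Ccl5 were called lower in unstimulated and higher in stimulated KO cells, so the ratios of the KO to the WT library pointed in opposite directions in the 2 states. The stimulated minus the unstimulated log2 ratio was 0.28 for Cxcl3 and 0.080 for Ccl5. The differences themselves were not tested, since each group was 1 library. Without the depth correction the unstimulated ratio is above 0 for both genes (0.064 for Cxcl3 and 0.14 for Ccl5), and the stimulated ratio of Ccl5 is −0.011.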

How the results depend on the processing

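Replicates could not be paired or left out, because each group was 1 library. The limma fit instead took KO over WT within each state and treated the states as repeats. With the log2 ratios as deposited, which are not scaled for depth, 5 ratios of called members changed sign: Ccl5 (0.14), Ccr1 (0.082), Cxcl16 (0.031) and Cxcl3 (0.064) in unstimulated and Ccl5 (−0.011) in stimulated cells. The p behind the calls stayed the same, so only their direction could change. With these ratios 4 members were called lower in unstimulated cells, and 7 of the signalling list higher and 3 lower. The median member was at 0.20, and the limma fit called 3 members higher. At an adjusted p under 0.05, 14 members were higher in unstimulated cells, as were 9 of the signalling list, with 11 of that list lower. At that threshold 11 members were higher in both states. For this threshold and for the ratios as deposited, the share of all genes called is not given here. These counts therefore show nothing particular to the members. At 1.5-fold or more the members called were 0 higher and 2 lower in unstimulated and 1 higher and 3 lower in stimulated cells, with 0 of the signalling list and 0 in both states, in either direction or opposite. At 2-fold or more these counts were 0, 0, 0 and 1 (Ackr3), and 0 for the rest. With median-gene scaling of the stimulation response, or only genes with at least 50 reads in 1 of the 2 libraries, 1 member was 2-fold lower in KO. With the variance trend limma called 8 members higher and 5 lower; the causes of these changes beyond the settings' own construction were not tested. Centring on the median gene could change only signs, by shifts of 0.0013 and 0.0052, and changed no call of the members tested. The precision filter removed Ackr3, and the exact binomial test lost the call of Ackr3 in stimulated cells. About 50 reads are needed per library for a counting SE of 0.29.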
